A study of Mus musculus with 28 samples.

Results

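The genes described here encode 3 groups of proteins that act in pre-mRNA splicing: the SR proteins (Srsf genes), the heterogeneous nuclear ribonucleoproteins (Hnrnp genes) and the subunits of SF3A and SF3B (Sf3 genes). They were taken by symbol from the deposited table of 55450 mouse genes, leaving out 2 Hnrnpa1-like pseudogenes, and came to 40 genes: 11 Srsf, 20 Hnrnp and 9 Sf3 genes. RNA was sequenced from C10 cells, a Pre-B cell line derived from HAFTL cells and carrying a C/EBPα-ER transgene, which joins rat C/EBPα to the hormone-binding domain of the estrogen receptor. C/EBPα is a transcription factor of myeloid cells, and β-estradiol releases the fusion into the nucleus. Libraries came from 3 biological replicates of uninduced cells (0h) and from 3 after each treatment time (1h, 12h and 48h) with 100 nM β-estradiol, 10 nM IL-3 and CSF-1, over which the cells convert to macrophages. All libraries came from this single line carrying the transgene, so the time points differ in treatment and not in genotype, and a treated line without the transgene was not analysed here. The same time points were profiled by promoter Capture Hi-C (PCHi-C), which captures the DNA fragments in contact with promoters.

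In splicing, the U2 small nuclear ribonucleoprotein (snRNP) selects the branch point of an intron. SF3A and SF3B are the parts of this particle that hold it to the branch point region. SR proteins bind mostly to exonic sequences and promote the use of nearby splice sites, and several hnRNP proteins bind introns or exons and block it, so the balance of the groups shapes which exons are included. Many of these proteins also act outside splicing, in mRNA export, stability and translation.

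**Figure D1:**
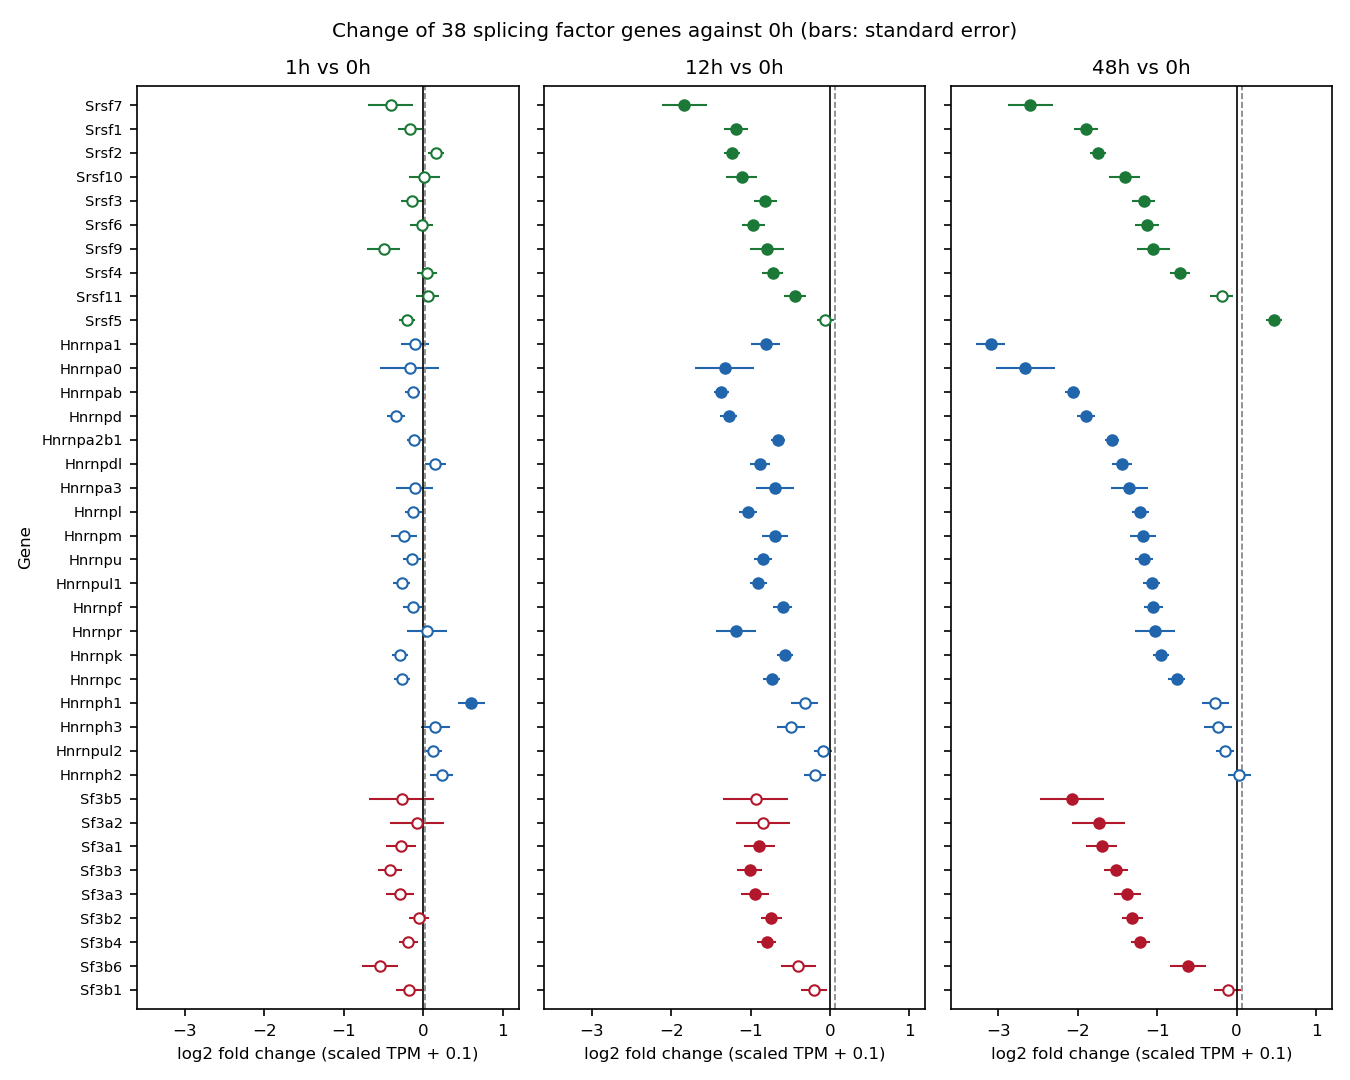
Log2 fold change against 0h of the 38 genes tested at 1h, 12h and 48h, grouped into Srsf (green), Hnrnp (blue) and Sf3 (red) genes. Bars are standard errors of the model with 3 libraries a time point, filled points have an adjusted p under 0.05, and the dashed line is the median of all genes tested. The filled points lie left of 0 at 12h and 48h, apart from Srsf5 at 48h, whose increase was not called on TPM as deposited.

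Values are given as scaled TPM, which are the deposited TPM (transcript abundance per length and library) divided by a size factor for each library. The scaling is needed because a pair of genes at one ribosomal RNA locus took between 70.3% and 82.9% of the TPM of a library, so that the TPM left for other genes differed between time points. On TPM as deposited, all genes tested had a median log2 fold change of 0.59 at 1h, 0.34 at 12h and -0.18 at 48h, against 0.021, 0.069 and 0.072 after scaling. Size factors averaged 0.930, 1.47, 1.18 and 0.699 at 0h, 1h, 12h and 48h. The third 48h library stood apart from the other two, with a median difference of 0.468 to 0.494 on the log2 scale, against 0.304 to 0.363 for the other pairs within a time point. TPM keep no record of depth, and the sequencing depth that the study reports in its supplement was not used here. The 12 Pre-B markers summed to between 336 and 365 scaled TPM at 0h and between 47.8 and 55.8 at 48h, and the 10 macrophage markers to between 12.9 and 16.4 and between 1459 and 1721. At 48h, 11 of the Pre-B markers were lower and all 10 macrophage markers higher than at 0h. Of T cell, fibroblast and erythroid markers, no list summed to more than 0.125 scaled TPM in any library, and the granulocyte list reached 8.09 at 12h, nearly all from Camp.

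Promoter sequence is shown for 3 genes that the results turn on: Srsf5, which was higher at 48h, Srsf7, the Srsf gene with the largest decrease, and Hnrnpa1, the gene with the largest decrease of all. Each line holds the 250 bases before the transcription start that RefSeq annotates on GRCm38.p6, in the direction of the gene. The windows are chr12:80945249-80945498 (plus strand), chr17:80207306-80207555 (minus strand) and chr15:103240147-103240396 (plus strand). Capitals mark matches to 5 motifs, each searched on both strands. The motif of ETS factors was spelled CCGGAAG. For C/EBP proteins, which include the factor induced here, the letters were TTGCNNAA. The core of the site of NRF1, a factor of housekeeping promoters, was taken as GCGCATGC. E-boxes, bound by factors such as MYC, were searched as CACGTG, and the remaining motif was the TATA box, with the letters TATAAA.
Srsf5: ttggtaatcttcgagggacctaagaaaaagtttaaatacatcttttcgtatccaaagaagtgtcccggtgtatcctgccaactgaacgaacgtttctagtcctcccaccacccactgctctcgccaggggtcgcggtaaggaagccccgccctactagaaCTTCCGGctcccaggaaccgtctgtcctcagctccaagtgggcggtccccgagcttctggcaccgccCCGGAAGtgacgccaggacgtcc
Srsf7: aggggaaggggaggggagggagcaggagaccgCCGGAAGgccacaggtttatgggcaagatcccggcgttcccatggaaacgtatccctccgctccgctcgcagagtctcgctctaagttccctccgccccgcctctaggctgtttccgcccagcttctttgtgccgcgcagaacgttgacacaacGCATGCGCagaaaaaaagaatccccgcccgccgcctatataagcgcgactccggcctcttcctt
Hnrnpa1: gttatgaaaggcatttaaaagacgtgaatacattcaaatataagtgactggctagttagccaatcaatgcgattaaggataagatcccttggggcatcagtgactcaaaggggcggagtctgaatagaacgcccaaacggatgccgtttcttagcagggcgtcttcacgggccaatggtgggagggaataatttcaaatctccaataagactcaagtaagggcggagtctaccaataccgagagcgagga
The Srsf5 window held the ETS motif once on each strand. The Srsf7 window held it once, together with the NRF1 core on the opposite strand. None of the 5 motifs was found in the Hnrnpa1 window.

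RefSeq had a window for 36 of the 40 genes. The ETS motif was in at least 1 window of 12 of these 36 genes (33.3%), against 16.2% of 9515 tested genes and 7.83% of all 27025 genes with a window. The 12 were Hnrnpd, Hnrnpf, Sf3a1, Sf3a2, Sf3a3, Sf3b2, Sf3b3, Sf3b6, Srsf4, Srsf5, Srsf7 and Srsf11. At 48h, 10 of them were lower and 1 higher than at 0h, beside 31 lower and 1 higher of all 38 tested splicing genes. Genes with the motif thus fell about as often as the whole set. The C/EBP motif was in 6 genes (16.7%; Hnrnpa2b1, Hnrnpab, Hnrnpdl, Hnrnph1, Sf3b2 and Srsf2), against 9.01% of tested genes. The E-box was in 3 genes (8.33% against 9.83%), the NRF1 core in 3 (8.33% against 5.08%) and the TATA box in 4 (11.1% against 8.08%). The median GC content was 64.0% in the windows of the splicing genes and 59.2% in those of tested genes. A match describes the letters of the window and not the binding of a factor.

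A total of 38 of the 40 genes had a mean of at least 0.1 TPM over the 12 libraries and were tested, 10 Srsf, 19 Hnrnp and 9 Sf3 genes. The remaining genes were close to absent: Hnrnpll, which regulates alternative exons in lymphocytes, did not exceed 0.06 deposited TPM and was above 0 in 5 libraries, and Srsf12 was above 0 in 1 library, at 0.07. At 0h the summed scaled TPM was 833 ± 22.6 for the Hnrnp genes, 235 ± 11.9 for the Srsf genes and 111 ± 2.13 for the Sf3 genes (SD, n = 3). By 48h the sums were 349 ± 19.4, 122 ± 3.86 and 54.3 ± 6.59 (SD, n = 3). At 12h they lay between, at 488 ± 12.2, 128 ± 6.43 and 69.8 ± 3.03 (SD, n = 3). For each group of genes, every 12h and every 48h library was below every 0h library. In bulk RNA, a change in the share of cells that express a gene and a change in its level per cell cannot be told apart, and a change in the RNA content of the cells was not measured.

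At 1h few of the genes had moved. Of the 38 genes, 1 was higher and 0 were lower than at 0h by limma at an adjusted p under 0.05, against 5.42% and 4.92% of all genes tested. An unadjusted p under 0.05 was found in 8 of the 38 genes, against 4134 of all 16415 genes tested, so the 8 are no more frequent than among all genes. The median log2 fold change of the 38 genes was -0.14. The direction of this median depends on the scaling: it was 0.03 after rescaling without the 20 most abundant genes, 0.04 after quantile normalization and 0.52 on TPM as deposited, where 15 genes were called higher and 0 lower and the median of all genes was itself 0.59.

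The gene called at 1h was Hnrnph1 (chromosome 11, 50376990 to 50386528), an hnRNP that binds runs of guanines near exons. It was at 43.8, 37.8 and 42.7 scaled TPM at 0h, 63.4, 63.7 and 61.5 at 1h, 33.4, 31.8 and 34.4 at 12h, and 41.4, 38.8 and 25.1 at 48h. The 1h libraries were above those of every other time point. At 1h its log2 fold change against 0h was 0.60 ± 0.17 (SE), with an adjusted p = 0.0448 from limma after Benjamini-Hochberg correction over all genes, and over 23 alternatives it ran from 0.54 to 1.26 with an adjusted p from 0.0011 to 0.143. The call was lost when any 0h, 1h or 12h library was left out, with adjusted p from 0.0592 to 0.143, so it rests on all 9 of these libraries. From 1h to 12h the gene fell by 0.92 on the log2 scale (adjusted p = 0.0026, limma). Of its paralogs, Hnrnph2 and Hnrnph3 had log2 fold changes at 1h of 0.23 and 0.15, which did not pass the test.

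At 12h most of the genes were lower. Of the 38 genes, 29 were lower and 0 higher than at 0h, against 14.5% and 16.0% of all genes tested. The 29 were 9 of 10 Srsf, 15 of 19 Hnrnp and 5 of 9 Sf3 genes, and the median log2 fold change was -0.81, with all 38 values below 0. A fall beyond 2-fold was called for 10 genes, against 9.39% of all genes. The number lower was 24 after rescaling without the 20 most abundant genes and after quantile normalization, and 13 on TPM as deposited, where the median was -0.47 beside 0.34 for all genes. Measured from 1h, 27 genes were lower at 12h (8.77% of all genes) and 0 higher (11.3%).

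At 48h, 31 of the 38 genes were lower and 1 higher than at 0h, against 22.0% and 24.5% of all genes tested. The genes that fell were 8 Srsf, 15 Hnrnp and 8 Sf3 genes, with group medians of -1.15, -1.16 and -1.38 on the log2 scale, and the median of all 38 was -1.20. A fall beyond 2-fold was called for 27 genes, against 17.6% of all genes. In 32 genes all 48h libraries lay below all 0h libraries, a pattern found in 23.9% of all genes. From 12h to 48h, 14 genes fell (11.9% of all genes) and 1 rose (10.5%). On TPM as deposited, 35 genes were lower and 0 higher at 48h, and 34 were lower than at 12h. In that setting the median of all genes was itself -0.18 against 0h and -0.62 against 12h. The medians of the 38 genes were -1.60 and -1.14. The shares of all genes called in that setting are not given. Without the third 48h library, 30 were lower and 1 higher than at 0h. The 1h, 12h and 48h comparisons share the 0h libraries.

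**Figure D2:**
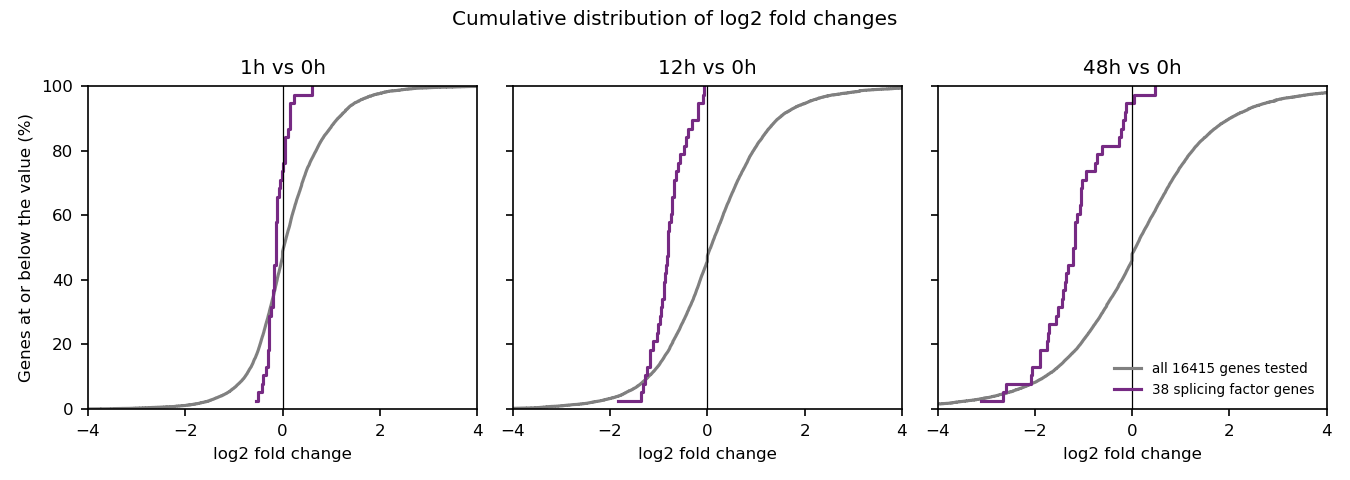
Cumulative distribution of log2 fold changes against 0h at 1h, 12h and 48h for all genes tested (grey) and the 38 splicing factor genes (purple). The horizontal axis is the log2 fold change of scaled TPM and the vertical axis the percentage of genes at or below it. The purple curve lies left of the grey one at 12h and 48h over most of its height, with medians of -0.81 and -1.20 against 0.069 and 0.072.

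Among the SR proteins, Srsf2, which binds exonic enhancers and is mutated in some myeloid neoplasms, had the highest level over the 12 libraries. It was at 38.6, 41.1 and 44.1 scaled TPM at 0h, 46.9, 44.2 and 47.3 at 1h, 16.5, 18.7 and 17.4 at 12h, and 11.7, 12.1 and 12.9 at 48h. The 12h and 48h libraries lay below all earlier ones without overlap. The log2 fold change was -1.23 ± 0.10 at 12h (adjusted p = 7.18e-06, limma) and -1.74 ± 0.10 at 48h (adjusted p = 1.54e-07, limma), while the 0.16 at 1h did not pass the test.

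Srsf7 (chromosome 17, 80200080 to 80207307), an SR protein with a zinc knuckle that also acts in polyadenylation and mRNA export, fell the most of its family. Its levels were 18.2, 20.4 and 24.1 scaled TPM at 0h, 16.2, 12.8 and 18.4 at 1h, 4.58, 6.60 and 6.35 at 12h, and 2.01, 4.39 and 4.26 at 48h. Levels at 0h and 1h overlapped, and those at 12h and 48h were lower than both and did not overlap each other. Srsf7 changed by -1.83 ± 0.28 in log2 units at 12h (adjusted p = 0.000582, limma) and -2.60 ± 0.28 at 48h (adjusted p = 1.85e-05, limma). The difference between 12h and 48h did not pass the test (adjusted p = 0.0774, limma).

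Srsf5 (chromosome 12, 80945504 to 80950507) was the only one of the 38 genes that was higher at 48h. It encodes an SR protein whose transcript is known to respond to growth conditions. The values were 26.1, 26.0 and 29.6 scaled TPM at 0h, 23.3, 21.9 and 25.7 at 1h, 25.9, 25.8 and 26.5 at 12h, and 38.5, 36.2 and 38.5 at 48h. The 48h libraries were above all 9 others. Against 0h, the 48h libraries gave 0.47 ± 0.11 on the log2 scale (adjusted p = 0.00343, limma), and against 12h it was 0.53 ± 0.11 (adjusted p = 0.0039, limma). On TPM as deposited the 48h value was 0.06 (adjusted p = 0.787, limma), with the median of all genes at -0.18, and the call held in the other 22 alternatives.

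Within a library, the share of a gene in the summed TPM of its family does not depend on the scaling between libraries, and it was compared after the values had been seen. Srsf5 was 11.3 to 11.9% of the Srsf total at 0h and 30.4 to 31.9% at 48h, with means of 10.6% at 1h and 20.3% at 12h. In the order of mean levels it went from the fourth of the 11 Srsf genes at 0h and 1h to the first at 12h and 48h. Its 0h and 48h shares did not overlap (p = 0.1 by a two-sided exact permutation test, which cannot go lower with 3 libraries a group). Srsf1, Srsf2, Srsf4, Srsf6, Srsf7, Srsf10 and Srsf11 reached the same p, so a lack of overlap is not particular to Srsf5. A share also rises where a gene keeps its level while the sum of its family falls. Srsf2 and Srsf1, the first and the second at 0h with 17.6% and 15.7% of the total, were at 10.1% and 8.07% at 48h. Srsf1 is the founding SR protein and a known oncogene, and its log2 fold change at 48h was -1.89.

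Srsf11 (chromosome 3, 158010473 to 158036639) was the Srsf gene with the smallest change at 48h. It encodes a nuclear protein with an arginine and serine rich domain that associates with the 3′ splice site machinery. It was at 22.1, 20.6 and 20.5 scaled TPM at 0h, 24.3, 20.8 and 20.6 at 1h, 15.1, 16.8 and 14.6 at 12h, and 19.3, 21.6 and 15.0 at 48h. The 12h libraries were below those of 0h and 1h, and the 48h libraries overlapped all other time points. Against 0h, the 12h change was -0.44 ± 0.14 in log2 units (adjusted p = 0.0377, limma), a call lost in 10 of 23 alternatives (adjusted p from 0.009 to 0.71), among them leaving out any 0h library, the first 12h library or the third. At 48h it was -0.19 ± 0.14 (adjusted p = 0.317, limma), and on TPM as deposited it was called lower, at -0.60. The other Srsf genes, Srsf3, Srsf4, Srsf6, Srsf9 and Srsf10, had log2 fold changes at 48h between -1.41 (Srsf10) and -0.71 (Srsf4), and all 5 were called lower at 12h and at 48h, although Srsf3, Srsf4 and Srsf9 were not called at 12h on TPM as deposited.

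**Figure D3:**
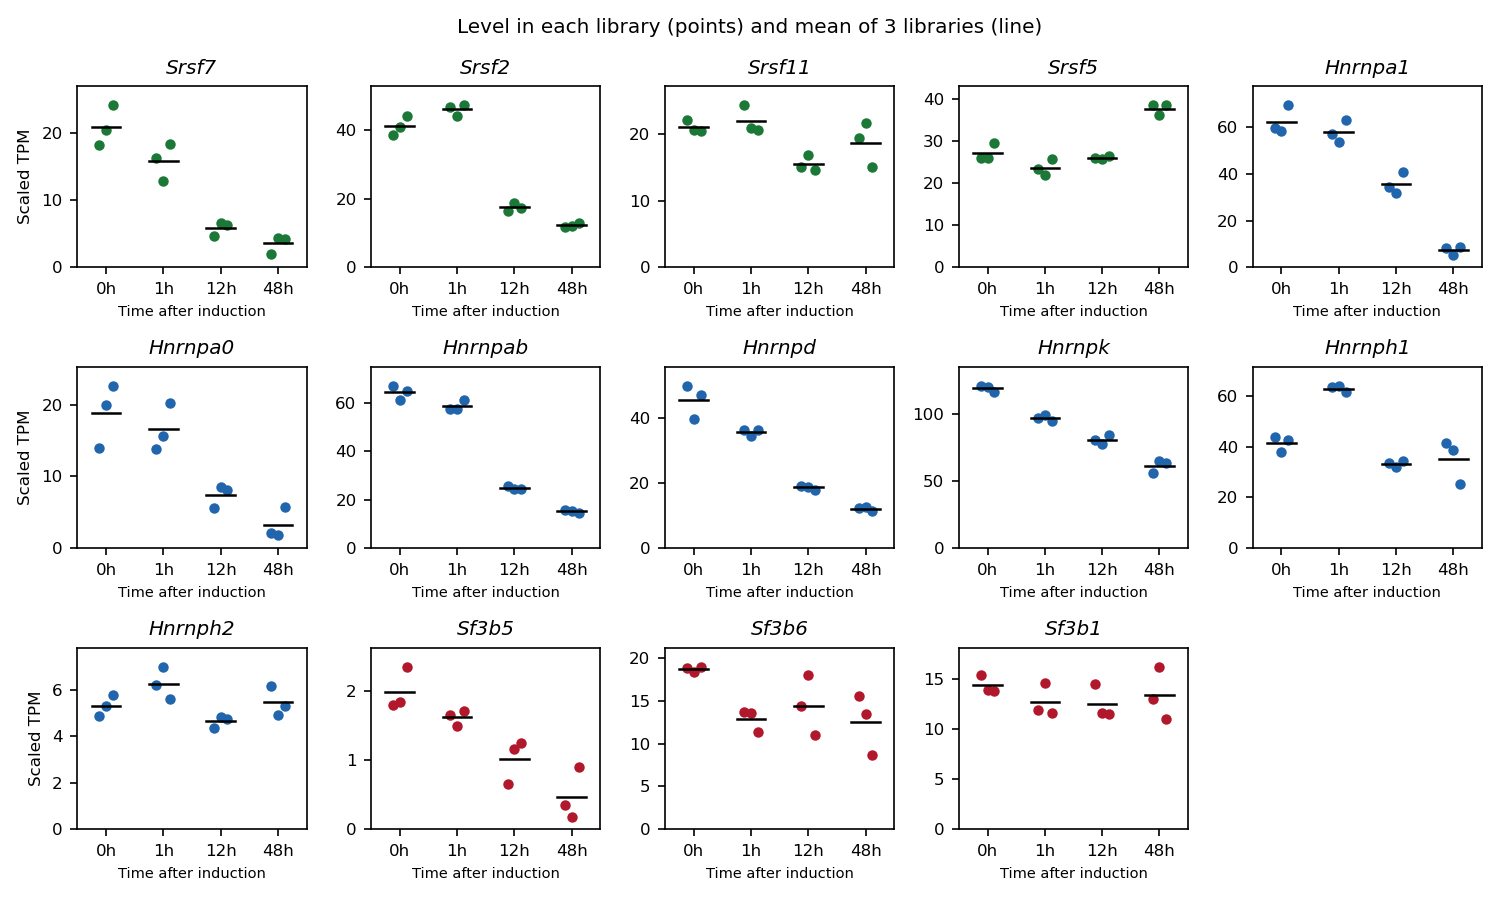
Scaled TPM of 14 named genes in each of the 12 libraries (points) with the mean of the 3 libraries of a time point (line), on linear axes from 0. Green, blue and red points are Srsf, Hnrnp and Sf3 genes. Hnrnpa1, Srsf2, Srsf7, Hnrnpab and Hnrnpd step down at 12h and 48h, Srsf5 is highest at 48h, and Hnrnph1 is highest at 1h.

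The hnRNP A and B proteins bind single-stranded RNA through paired RNA recognition motifs, and Hnrnpa1 is the classical repressor of exon inclusion among them. Hnrnpa1 (chromosome 15, 103240432 to 103246692) was at 59.7, 58.6 and 69.5 scaled TPM at 0h, 57.1, 53.9 and 63.1 at 1h, 34.6, 31.8 and 41.0 at 12h, and 8.13, 5.34 and 8.62 at 48h. The 48h libraries were below all 12h libraries, which were in turn below all earlier ones. Its log2 fold change was -0.81 ± 0.18 at 12h (adjusted p = 0.00587, limma) and -3.10 ± 0.18 at 48h (adjusted p = 1.35e-07, limma), and the step from 12h to 48h was -2.29 ± 0.18. The 12h call was lost on TPM as deposited, at -0.47 (adjusted p = 0.121). Its share of the Hnrnp total started at 7.52% ± 0.836 (0h), stayed at 7.56% ± 0.675 (1h) and 7.33% ± 0.843 (12h), and ended at 2.12% ± 0.553 (48h; SD, n = 3), without overlap between 0h and 48h (p = 0.1 by the same exact test). Many other Hnrnp genes reached the same p, among them Hnrnpd, Hnrnpab, Hnrnph1 and Hnrnpc. Hnrnpa1 has many processed copies in mammalian genomes, and reads from such copies could be divided among them when TPM are estimated. The 2 annotated pseudogenes left out by the rule did not exceed 0.12 scaled TPM in any library. Copies under other symbols, or not annotated, were not examined, so these levels say nothing about them.

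Hnrnpa0, an hnRNP that binds AU-rich elements of inflammatory mRNAs, had the second largest fall. It was at 14.0, 19.9 and 22.5 scaled TPM at 0h, 13.8, 15.6 and 20.3 at 1h, 5.64, 8.46 and 8.14 at 12h, and 2.12, 1.84 and 5.72 at 48h. The third 48h library was above the first 12h library, and no 12h or 48h library reached the 0h or 1h levels. Against 0h, the change in log2 units was -2.66 ± 0.37 at 48h (adjusted p = 0.000127, limma). At 12h it was -1.33 ± 0.37 (adjusted p = 0.0192, limma), a call lost without the second or the third 0h library or the first 12h library (adjusted p = 0.0593, 0.0732 and 0.077), and on TPM as deposited (-0.99, adjusted p = 0.0759).

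Hnrnpab, related to hnRNP D and found in nuclear and cytoplasmic mRNA particles, was at 66.9, 61.2 and 65.2 scaled TPM at 0h, 57.3, 57.6 and 61.2 at 1h, 25.9, 24.5 and 24.4 at 12h, and 15.8, 15.5 and 14.7 at 48h. Replicates lay close together and the 12h and 48h libraries did not overlap each other or any earlier library. Its log2 fold change was -1.37 ± 0.10 at 12h and -2.06 ± 0.10 at 48h (adjusted p = 2.46e-08, limma). Hnrnpd, also known as AUF1 and best known for its part in the decay of AU-rich mRNAs, was at 49.8, 39.8 and 47.1 scaled TPM at 0h, 36.5, 34.5 and 36.4 at 1h, 19.1, 18.9 and 18.0 at 12h, and 12.3, 12.6 and 11.4 at 48h. Each time point lay below the one before without overlap, although the -0.34 at 1h did not pass the test (adjusted p = 0.0794, limma). Hnrnpd changed by -1.28 ± 0.11 at 12h and -1.90 ± 0.11 at 48h in log2 units (adjusted p = 1.4e-07, limma). Other members of these subfamilies fell as well at 48h, by 1.57 for Hnrnpa2b1, 1.44 for Hnrnpdl and 1.35 for Hnrnpa3 on the log2 scale.

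Hnrnpk, a protein with KH domains that binds C-rich sequences, had the highest level of all the genes at every time point. It was at 121, 120 and 117 scaled TPM at 0h, 97.4, 99.1 and 95.2 at 1h, 80.5, 77.7 and 84.3 at 12h, and 55.8, 65.1 and 63.8 at 48h. No library of a later time point reached the level of an earlier one. The log2 fold change was -0.56 ± 0.10 at 12h (adjusted p = 0.00166, limma) and -0.96 ± 0.10 at 48h (adjusted p = 1.51e-05, limma). The 12h call was lost under each other scaling, with -0.44 (adjusted p = 0.0679) after rescaling, -0.33 (adjusted p = 0.243) after quantile normalization and -0.22 (adjusted p = 0.387) on TPM as deposited. Its share of the Hnrnp total was 14.3% ± 0.315 at 0h and 17.7% ± 2.24 at 48h (SD, n = 3).

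Hnrnph1, Hnrnph2, Hnrnph3 and Hnrnpul2 were the Hnrnp genes not called at 48h. Hnrnph2, on chromosome X, had the smallest change, with 4.88, 5.31 and 5.81 scaled TPM at 0h, 6.22, 6.98 and 5.64 at 1h, 4.39, 4.84 and 4.77 at 12h, and 6.20, 4.91 and 5.32 at 48h. Its 0h and 48h libraries overlapped, and the log2 fold change was 0.03 ± 0.14. Those of Hnrnph1, Hnrnph3 and Hnrnpul2 at 48h were -0.27, -0.23 and -0.15. On TPM as deposited, Hnrnph1, Hnrnph3 and Hnrnpul2 were called lower at 48h, with -0.68, -0.62 and -0.55. Of the Hnrnp genes that fell, Hnrnpc had the smallest change, at -0.76, and the other Hnrnp genes (Hnrnpf, Hnrnpl, Hnrnpm, Hnrnpr, Hnrnpu and Hnrnpul1) lay between -1.21 and -1.03. Hnrnph3 (2.26 scaled TPM on average) overlaps Rufy2 on the other strand (1.82), and Hnrnpul2 overlaps a further annotated gene on its own strand, so that part of their reads may belong to the neighbour.

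**Figure D4:**
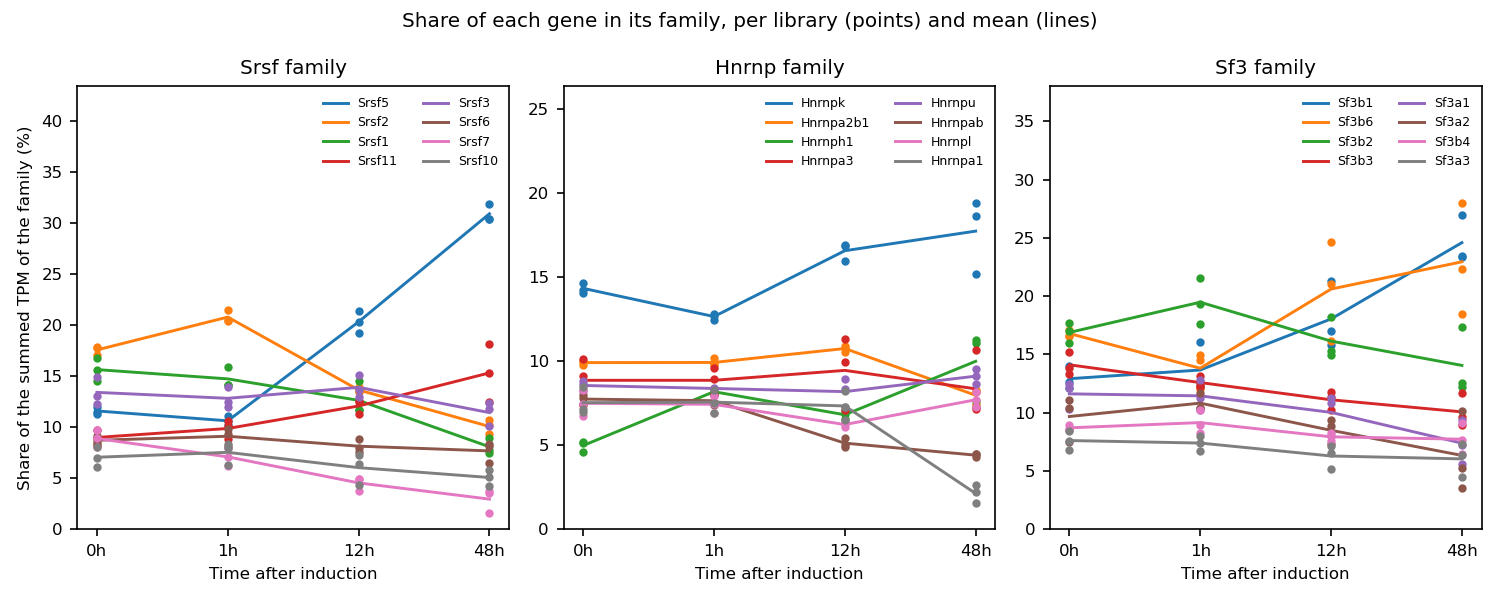
Share of the summed TPM of its family taken by each of the 8 genes with the highest shares, in percent, in the Srsf, Hnrnp and Sf3 families. Points are the 12 libraries and lines join the means of the 3 libraries of each time point. Srsf5 goes from 11.6% to 30.9% of its family and Sf3b1 from 12.9% to 24.6%, while Hnrnpa1 goes from 7.52% to 2.12%.

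The SF3 genes encode the U2 snRNP parts that contact the branch point: Sf3a1, Sf3a2 and Sf3a3 form SF3A, and Sf3b1 to Sf3b6 belong to SF3B. All 3 SF3A genes were lower at 48h, with log2 fold changes of -1.70 for Sf3a1, -1.74 for Sf3a2 and -1.38 for Sf3a3. The 48h libraries of Sf3a2 spread widely, at 1.98, 6.11 and 2.47 scaled TPM. Its 48h call was lost with replicates 1 and 2 only (adjusted p = 0.0738, limma). Sf3a2 (7.58 scaled TPM on average) overlaps Plekhj1 (6.0) on the other strand, and whether the strand was used in the estimation of TPM is not given in the sources used here. In SF3B, the values were -2.07 for Sf3b5, -1.52 for Sf3b3, -1.32 for Sf3b2, -1.21 for Sf3b4, -0.61 for Sf3b6 and -0.12 for Sf3b1, of which all but the last passed the test. At 12h, Sf3b3 (-1.01), Sf3a3 (-0.94), Sf3a1 (-0.89), Sf3b4 (-0.80) and Sf3b2 (-0.74) were already lower. On TPM as deposited, the 12h values of Sf3a1 (-0.56), Sf3b4 (-0.47) and Sf3b2 (-0.41) did not pass the test, and Sf3a1 did not pass with replicates 1 and 2 only (adjusted p = 0.0759).

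Sf3b1 (chromosome 1, 54985169 to 55027481), the scaffold of SF3B and a gene mutated in myelodysplastic syndromes, was thus the exception. It was at 15.4, 13.9 and 13.8 scaled TPM at 0h, 11.9, 14.7 and 11.6 at 1h, 14.5, 11.6 and 11.5 at 12h, and 13.0, 16.2 and 11 at 48h. The libraries of all 4 time points overlapped. The log2 fold change was -0.20 ± 0.16 at 12h and -0.12 ± 0.16 at 48h (adjusted p = 0.606, limma), and it passed the test at 48h in none of 23 alternatives (adjusted p from 0.0567 to 1). Over these alternatives the 48h value ran from -0.52, on TPM as deposited, to 0.02, without the third 48h library. Its share of the Sf3 total was 12.1 to 14.0% at 0h and 23.4 to 26.9% at 48h, with no overlap (p = 0.1 by the same exact test). Sf3a1, Sf3b3 and Sf3b6 reached the same p.

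Sf3b5, a small subunit that sits on the SF3B core, had the lowest level of the tested Sf3 genes. Its levels were 1.78, 1.84 and 2.33 scaled TPM at 0h, 1.64, 1.49 and 1.71 at 1h, 0.656, 1.15 and 1.24 at 12h, and 0.351, 0.167 and 0.891 at 48h. The 48h libraries spread widely, with the third above the first 12h library, and all lay below the 0h libraries. Its 48h change against 0h, in log2 units, came to -2.07 ± 0.41 (adjusted p = 0.00148, limma), and over 23 alternatives it ran from -2.58 to -1.05. Sf3b6, the subunit known as p14 that touches the branch point adenosine, had the highest mean level of the family over the 12 libraries, although Sf3b2 was above it at 0h and 1h and Sf3b1 at 48h. Its levels were 18.8, 18.4 and 18.9 scaled TPM at 0h, 13.7, 13.6 and 11.3 at 1h, 14.4, 18.1 and 11 at 12h, and 15.6, 13.4 and 8.69 at 48h. Every later library was below the 0h libraries. For Sf3b6 the 48h change was -0.61 ± 0.22 in log2 units (adjusted p = 0.0431, limma), a call kept in 9 of 23 alternatives and lost without any one of the 0h or 1h libraries, the first 12h library or the second 48h library (adjusted p from 0.0543 to 0.0949). Without the third 48h library, where the level was lowest, it was -0.37 (adjusted p = 0.141).

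Other genes of the splicing machinery were counted as lists. Of all genes tested, 5.42% were higher and 4.92% lower at 1h, 16.0% and 14.5% at 12h, and 24.5% and 22.0% at 48h. These shares are for scaled TPM. Those on TPM as deposited are not given, and the median of all genes there was 0.34 at 12h and -0.18 at 48h. Of 22 core Sm, Lsm and U snRNP genes, 0 were called at 1h, 16 were lower at 12h (10 on TPM as deposited) and 20 were lower at 48h, with 0 higher and a median log2 fold change of -2.11 at 48h. They include Snrpd1 (-2.19), Snrpd2 (-3.13), Snrpe (-2.11), Snrpf (-2.65) and Snrpg (-2.88), which encode proteins of the Sm ring around each snRNA. The summed level of the list was 288 to 304 scaled TPM at 0h and 88.3 to 102 at 48h. Of 11 genes for recognition of the 3′ splice site, 5 were lower at 12h (1 on TPM as deposited), and at 48h 8 were lower and 1 higher, with a median of -1.02. U2af1 and U2af2, the subunits that bind the 3′ splice site and the polypyrimidine tract, had log2 fold changes of -1.58 and -1.45, and Phf5a, a further subunit of SF3B, of -1.73. Of 31 genes of the tri-snRNP, the Prp19 complex and the catalytic steps, 2 were lower at 1h, 12 were lower at 12h (6 on TPM as deposited), and at 48h 15 were lower and 0 higher, with a median of -0.56.

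The next list holds SR-related proteins and the kinases and the importin of SR proteins. Of 19 such genes, 8 were lower and 0 higher at 12h (2 and 3 on TPM as deposited), and at 48h 7 were lower and 5 higher, with a median of 0.053 that was -0.033 after quantile normalization, -0.020 after rescaling without the 20 most abundant genes and -0.36 on TPM as deposited (2 higher and 9 lower). At 48h, 24.5% of all genes tested were higher and 22.0% lower, so the 5 higher genes are close to the share of all genes. Without the third 48h library, 7 were higher and 6 lower. The 5 higher genes were Clk4 (1.38), Clk1 (0.99), Son (0.76), Srpk2 (0.58) and Srrm2 (0.30), of which only Clk1 and Clk4 were called on TPM as deposited and Srrm2 was below 0 there. Clk1 and Clk4 are nuclear kinases and Srpk2 a mainly cytoplasmic one, all of which phosphorylate SR proteins, and Son and Srrm2 form the core of nuclear speckles. The 7 lower genes were Rnps1 (-2.29), Luc7l (-1.01), Tra2b (-1.01), Srpk1 (-0.88), Tnpo3 (-0.80), Acin1 (-0.59) and Pnn (-0.49). Tnpo3 imports phosphorylated SR proteins into the nucleus.

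The last list holds other RNA-binding regulators of splicing. Of 36 listed genes 34 were tested, of which 5 were higher and 17 lower at 12h (7 and 5 on TPM as deposited), and 7 were higher and 18 lower at 48h (5 and 20 on TPM as deposited), with a median of -0.49. All genes tested had 16.0% higher and 14.5% lower at 12h and 24.5% and 22.0% at 48h, so the higher genes of the list are no more frequent than among all genes. The polypyrimidine tract binding proteins differed in direction, with Ptbp1 at -1.94, Ptbp2 at 1.32 and Ptbp3 at 0.86 at 48h. So did the muscleblind family, with Mbnl1 at 1.56, Mbnl2 at 1.67 and Mbnl3 at -2.58. Further genes that rose were Ddx17 (1.57), an RNA helicase, Rbm5 (1.26) and Qk (0.77). Of these 7 higher genes, Ptbp3 and Qk were not called on TPM as deposited.

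The counts moved together with genes of the cell cycle. Of 15 proliferation genes, 0 were called at 1h, 13 were lower at 12h and 15 at 48h, with medians of -2.76 and -5.44, and their summed level was 304 to 313 scaled TPM at 0h and 276 at 1h, against 62.7 to 66.3 at 12h and 12.9 to 14.8 by 48h. The part of the decline in proliferation genes in the fall of the splicing genes was not tested.

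In the PCHi-C data, contacts of each gene were counted from the deposited lists, in which both replicates of a time point were merged, so that they carry no replicate error. Baits are HindIII fragments that hold a transcription start, and other genes can lie on the same fragment. All 40 genes had at least 1 bait. The 38 tested genes had median numbers of 13.5, 9, 9 and 9.5 contacts at 0h, 1h, 12h and 48h, and the sum over the genes was 596, 521, 441 and 425. The 11817 tested genes with a bait had medians of 8, 7, 7 and 7. From 0h to 48h, 26 splicing genes had fewer contacts, 11 more and 1 the same number, and over all those genes 49.0% had fewer and 39.7% more. Of 945 contacts of the 38 genes listed at any time, 172 were listed at all 4. With only the bait that holds the start of each gene, the medians were 11, 8, 7 and 6.5, and with a score of at least 10 the 0h median was 1.

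Hnrnpc, which encodes the hnRNP that binds uridine tracts, had 30, 42, 20 and 5 contacts at 0h, 1h, 12h and 48h, and 4 of the 0h contacts were still listed at 48h. Contacts of Hnrnpd over its 2 baits went from 31 to 15, 9 and 10, with 7, 3, 2 and 2 on the bait that holds its start. Those of Srsf9 went from 23 to 15, 5 and 4, and those of Hnrnpa3 from 22 to 14, 7 and 5. Srsf1 was steady, with 17, 13, 15 and 16 contacts, of which 12 of 18 were listed at all 4 times, while its level fell. Srsf11 had 44, 40, 33 and 42 contacts, and Sf3b3 the most, with 73, 70, 63 and 61 over 3 baits. Srsf5 had 5 contacts at 0h and 3 at 48h. The 31 genes lower at 48h had a median of 11 contacts at 0h and 10 at 48h, and the 6 genes not called had 17 and 8.5. Baits of a pair of the genes were listed in contact with each other 3 times, each at all 4 time points: Hnrnpa0 and Hnrnpk on chromosome 13, whose starts are 275 kb apart, Hnrnpd and Hnrnpdl on chromosome 5 (60.7 kb), and Hnrnpll and Srsf7 on chromosome 17 (145 kb), of which Hnrnpll is nearly silent.

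**Figure D5:**
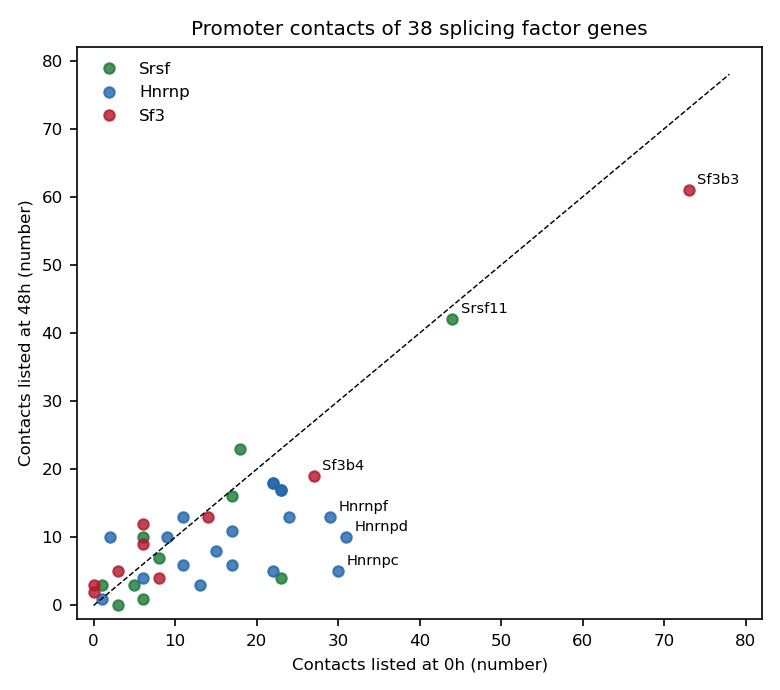
Number of PCHi-C contacts listed at 0h (horizontal axis) and at 48h (vertical axis) for each of the 38 tested genes, with the line of equal numbers dashed and genes with 27 or more contacts named. Replicates were merged, so points have no error bars. Of the 38 genes, 26 lie below the line, with Hnrnpc at 30 and 5 and Hnrnpd, counted over 2 baits, at 31 and 10. Srsf11 is close to the line.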

How the data were processed

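Per the study's methods, total RNA was depleted of ribosomal RNA with a kit before the libraries were made. The 12 libraries, 3 at each of 0h, 1h, 12h and 48h, were sequenced as single-end 100 bp reads. Per the labels and the study's methods, the authors trimmed reads with Trim Galore 0.6.2, aligned them to mm10 with HISAT2 2.1.0 and estimated TPM per gene with RSEM; TPM at gene level do not separate isoforms. The authors deposited PCHi-C contacts called by CHiCAGO with a score of at least 5 on 2 merged replicates, and the 0h list holds scores. The lists of 1h, 12h and 48h were deposited with whole numbers taken as read counts, which were not used; from these lists only the listed pairs were.

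TPM were divided by median-of-ratios size factors. Genes with a mean of at least 0.1 TPM (16415 of 55450) were fitted with limma 3.58.1 in R 4.3.3 on log2(scaled TPM + 0.1), with time point as the only term, all 12 libraries and a mean-variance trend, so fold changes of low genes are understated. P-values were adjusted over all genes tested by the Benjamini-Hochberg method, and genes under 0.05 were called. Shares were compared by two-sided exact permutation tests. Other tables used Python 3.11.15 (pandas 2.3.3, scipy 1.17.1, matplotlib 3.10.9). Per the labels and the study's methods, the 3 libraries of a time point are biological replicates, and technical replicates were merged. Separate cultures are not named, so p-values measure the spread between these libraries. How far that spread covers separate inductions is not known. TPM hold no depth, so no counting interval is given.

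The members, the gene lists and the scaling were chosen with earlier results of these data known. Genes named with every library were the 4 with the largest increase and decrease among those called at each time, and the highest and the least changed of each family; all Sf3 genes are given by fold change. Srsf1, the share comparisons and the contact examples were chosen after their values were seen. Alternatives were other scalings, pseudocounts, filters and models, and leaving out each library. The fits were tested on simulated data. Coordinates are GRCm38.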

Additional observations from a re-analysis of the deposited data

How the results depend on the processing

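The members' fold changes against 0h at 1h, 12h and 48h were compared over 23 alternatives. Of these values, 2503 kept their side of the threshold, 83 lost a call, 30 gained one and 6 reversed with a call. A change of sign without a call in either fit is counted among the 2503, so more signs changed than these 6. Sf3a1 at 1h, for example, ran from -0.37 to 0.38 and was called in 0 alternatives. The 6 reversals with a call were at 1h on TPM as deposited, where the median of all genes was 0.59: Hnrnpa2b1 0.55, Srsf6 0.64, Hnrnpab 0.53, Srsf5 0.45, Sf3b2 0.60 and Hnrnpu 0.52. On TPM as deposited, 15 members were higher at 1h, 13 lower at 12h, 0 higher at 48h, and 0 higher and 34 lower from 12h to 48h. The median of all genes from 12h to 48h was itself -0.62 in that setting. At 1h, 0 members were higher after rescaling without the 20 most abundant genes, after quantile normalization, without a filter, without a trend and beyond a log2 change of 1, and 3 were lower when only the 6 libraries compared were fitted. From 12h to 48h, 0 were higher after rescaling, and 8 were lower with replicates 1 and 2 only. Beyond a log2 change of 1, 10 were lower at 12h, 0 higher at 48h, 8 lower from 1h to 12h, and 0 higher and 2 lower from 12h to 48h, as fewer genes pass a fold limit. Leaving out 1 library gave 0 to 1 higher and 0 to 3 lower at 1h, and 1 to 2 higher from 12h to 48h. The cause of the other shifts was not tested. Deviations of libraries that share a replicate number gave r from -0.011 to 0.257 in 18 pairs, 7 of them over 0.1. Libraries with different numbers gave r from -0.183 to 0.105 in 36 pairs, 1 of them over 0.1. Replicate 3 libraries deviated together, with r from 0.081 to 0.257. With replicate 1 and 2 libraries of other time points, their r was negative throughout. Deviations were taken from the mean of each time point and cancel over its libraries. The negative r therefore partly follows from the positive r and is not a separate observation. The main fit had no replicate term, and the cause of this shared deviation was not tested. With a replicate block 1 member was higher at 1h, 31 fell by 12h, and the 48h counts were 1 higher and 31 lower. The block gave 26 lower from 1h to 12h, and 1 higher and 19 lower from 12h to 48h. Depth is not recorded in TPM, and contact counts have no replicate error.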
